A study of Caenorhabditis elegans with 8 samples.

Results

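The PAR polarity genes were examined as mRNAs recovered with the sperm-fate protein FOG-3 of the nematode Caenorhabditis elegans. They were 8 of the 12240 gene rows of the count table, namely par-1, par-2, par-3, par-4, par-5, par-6, pkc-3 and cdc-42, and were taken by gene ID. The table carries WormBase IDs without symbols, and the gene reference used here lists all 8 symbols but none (0) of the table's IDs, so the pairing of ID and symbol is that of the list defining the set and was not checked further. RNA was measured by iCLIP, in which protein and bound RNA are crosslinked by ultraviolet light, purified together and sequenced. All 8 libraries came from larvae of the fourth stage (L4) carrying a FLAG-tagged FOG-3 integrated in a single copy. In 4 libraries FOG-3 was purified with an antibody against the FLAG epitope. The other 4, the controls, came from the same tagged worms with that antibody left out, so they measure RNA carried along without specific purification and not RNA of untagged worms. Whole larvae were lysed, so germ cells and somatic cells contributed together. For the level of a gene within a group, fewer cells of a type and less RNA per cell cannot be told apart. Both groups came from worms of the same kind and differed in the antibody.

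The PAR network divides animal cells into domains that differ in their cortex, and it is best known from the C. elegans zygote, where maternal mRNA made in the germ line supplies the proteins. At the anterior cortex the scaffold proteins PAR-3 and PAR-6 hold the atypical protein kinase PKC-3, and the small GTPase CDC-42 binds PAR-6. At the posterior cortex the RING-finger protein PAR-2 and the kinase PAR-1 exclude them, while the kinase PAR-4 and the phosphoserine-binding adaptor PAR-5 are present throughout the cell. FOG-3, a protein of the Tob family, is required for germ cells to become sperm.

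The 8 rows held 500 reads with FOG-3 and 23 in controls, and 130 of the FOG-3 reads fell on pkc-3, which like par-6 had no control read. Libraries are called here by the 4-letter tags of their columns and differed in depth. Among the FOG-3 libraries GGTT had 76790 reads assigned to genes, CGGA 80529, GGCA 97054 and TGGC 186739, and among the controls TTAA had 14964, CCGG 18676, AATA 30631 and TTGT 74892. Values per library are listed below in this order, from the shallowest to the deepest library of a group. Levels are given as CPM, read counts scaled to library size, with TMM factors that correct for the different make-up of the libraries. A lone read was worth 3.58 to 8.43 CPM in FOG-3 libraries and 18.6 to 113 CPM in controls, so a single control read can equal the level of many FOG-3 reads. The floor of 3 reads that a count of 0 allows lay at 55.9 to 338 CPM in controls. Intervals below are exact Clopper-Pearson intervals at the 95% level and cover counting error only. Of the 32 pairs of a control library and a PAR gene, 20 had 0 reads, against 2 pairs in FOG-3 libraries.

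Of the 8 genes, pkc-3, par-5 and par-1 were called higher in FOG-3 libraries than in controls, and 0 were called lower. The call rested on edgeR's quasi-likelihood test over all rows with enough reads, at a Benjamini-Hochberg adjusted p under 0.05. Of all 886 rows tested, 45.3% were called higher and 27.5% lower, so a call as such did not set these genes apart. Among the 3 PAR genes tested, 0 were lower at an unadjusted p under 0.05 in edgeR, and DESeq2 and limma-voom also called 0 lower. The other 5 genes did not pass the filter on low counts and have no test in this fit. The filter required a level that no control library reached for pkc-3 or par-5 and that 1 reached for par-1. A row of this kind had to be high in FOG-3 to be tested, so the count of 3 called among 3 tested is given as a description. The same holds for the count of 0 lower. Only pkc-3 (1 gene) was called with limma-voom, which called 44.2% of the rows higher and 26.9% lower, with the control TTGT left out (51.8% higher), or at a threshold of 0.01 (39.2% higher). DESeq2 called all 3 genes, among 63.4% of rows higher and 9.82% lower. A looser filter of 1 CPM in 4 libraries let all 8 genes into the test and called par-3 and par-6 as well, 5 in all, where 22.3% of rows were higher.

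pkc-3 (WBGene00004034), the kinase of the anterior complex, gave the clearest difference. It had 20 reads in GGTT, 20 in CGGA, 29 in GGCA and 61 in TGGC, and 0 in each of the 4 controls. The corresponding levels were 157, 169, 182 and 219 CPM, a mean of 181 ± 26.8 CPM (SD, n = 4). Every FOG-3 library thus lay above every control. In TTAA and CCGG, however, the floor of 3 reads, 338 and 264 CPM, lay above all of these levels. The zeros of those shallow controls do not by themselves show a lower level. In AATA the floor was 152 CPM, just below the lowest of these levels, and in TTGT it was 55.9 CPM. A separation of every FOG-3 library above every control was found in 43.5% of the tested rows and in 14.3% of all gene rows. With the controls set to 3 reads over the group, pkc-3 was at least 5.92-fold higher after purification of FOG-3 (edgeR adjusted p = 6e-07). The fitted log2 fold change of 7.19 ± 1.36 (SE) exceeded that of 98% of the tested rows. It depends on a prior count because the control count is 0, and limma-voom gave 2.76, larger than in 92.6% of rows. Without any filter on low counts, where 7.75% of all 12240 rows were called higher, the edgeR adjusted p of pkc-3 was 8.8e-08. Reads of pkc-3 varied between FOG-3 libraries no more than counting error, with a chi-square of 0.515 per degree of freedom. Of all gene rows, 6854 had no control read, and 1162 of these had a read in all 4 FOG-3 libraries. Of the 423 rows with at least 130 FOG-3 reads, the number of pkc-3, 18 rows (4.26%) had no control read, pkc-3 included. That cutoff is the count of pkc-3 itself, so the other rows had as many FOG-3 reads or more. The share is therefore given as a description.

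**Figure D1:**
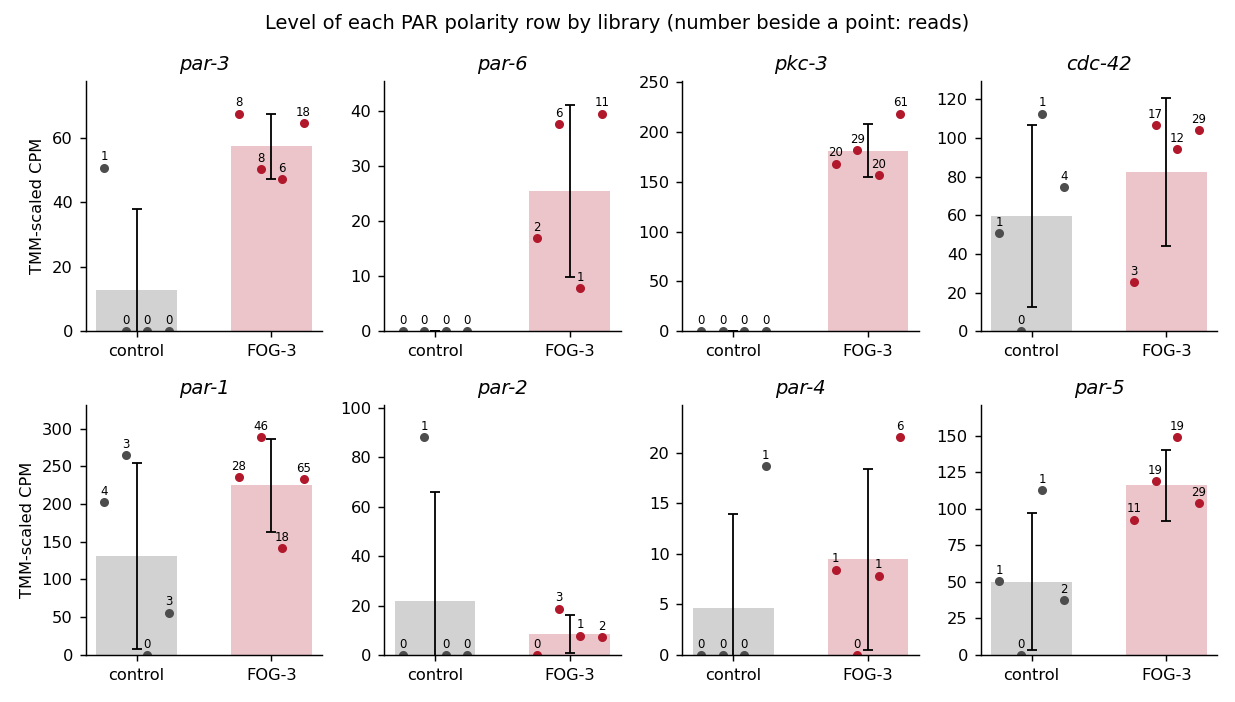
TMM-scaled CPM of each PAR gene in the 4 control (grey) and 4 FOG-3 (red) libraries, with the number of reads printed beside each point. Bars are means and error bars SD over 4 libraries, cut at 0, and each panel has its own axis because levels of different genes are not compared. For pkc-3 all controls lie at 0 and FOG-3 libraries at 157 to 219 CPM. For par-1, par-3, par-4, par-5 and cdc-42 a control with 1 to 4 reads lies among the FOG-3 libraries. The control with 1 read of par-2 lies above its FOG-3 libraries.

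The scaffold genes of the same complex were recovered with FOG-3 at fewer reads and did not pass the filter. par-3 (WBGene00003918) had 6, 8, 8 and 18 reads in the FOG-3 libraries, and 1 read among the controls, in AATA. Its level was 57.3 ± 10.2 CPM with FOG-3 and 12.7 ± 25.3 CPM without the antibody (SD, n = 4). The lone control read was worth 50.7 CPM, above GGTT with 47.0 CPM and GGCA with 50.1 CPM, so the groups overlapped by that read. The pooled fold of par-3 was 5.47 (95% interval 0.927 to 221). The fit without a filter gave par-3 a value of 2.84 ± 1.03 on the log2 scale (SE, edgeR adjusted p = 0.064), above that of 82.5% of all rows. Without a filter par-3 passed the threshold with total counts (edgeR adjusted p = 0.004), where 14% of all 12240 rows were called higher, and with limma-voom (adjusted p = 0.013, 9.03% of rows). It also passed with DESeq2 (10.3% of rows), with the size factors of DESeq2 in edgeR (13.1%) and when scaled on the most abundant row (23.4%). Without AATA, which held the lone control read, the log2 value was 5.74 and the edgeR adjusted p 0.030. Without each of the other controls the value was 2.20 to 2.69 and the adjusted p 0.13 to 0.34. Between FOG-3 libraries par-3 was even, with a chi-square of 0.113 per degree of freedom.

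par-6 (WBGene00003921) had 1, 2, 6 and 11 reads in the FOG-3 libraries and 0 reads in the controls. Its FOG-3 level was 25.4 ± 15.6 CPM (SD, n = 4), from 7.84 to 39.4 CPM. Every FOG-3 library lay above the controls, but this whole range lies below the control floors of 55.9 to 338 CPM. With the controls set to 3 reads over the group, the bound of the pooled fold lay below 1 with TMM scaling, and no fold is given. The call of par-6 depended on the setting. The fit without a filter gave par-6 a value of 4.62 ± 1.86 on the log2 scale (SE, edgeR adjusted p = 0.11), again dependent on the prior count. With the filter of 1 CPM in 4 libraries the edgeR adjusted p was 0.047. Scaled on total counts, par-6 was at least 2.10-fold higher and the edgeR adjusted p without a filter was 0.022. In that fit 14% of all 12240 rows were called higher, and the median log2 fold change was 1.43. With DESeq2 and limma-voom without a filter the log2 values of par-6 were 2.45 and 0.64, and the adjusted p were 0.15 and 0.34.

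cdc-42 (WBGene00000390), the GTPase that binds PAR-6, showed no such separation. It had 12, 3, 17 and 29 reads in the FOG-3 libraries, or 94.1, 25.3, 107 and 104 CPM. The controls had 1, 0, 1 and 4 reads, or 113, 0, 50.7 and 74.6 CPM. The groups overlapped, and all controls but CCGG lay above the FOG-3 library CGGA. Means were 82.5 ± 38.5 CPM with FOG-3 and 59.5 ± 47.1 CPM without the antibody (SD, n = 4). The pooled fold was 1.39 (95% interval 0.603 to 3.93), an interval that holds both no difference and the pooled fold of par-1. The fit without a filter gave cdc-42 a value of 1.04 ± 0.61 on the log2 scale (SE, edgeR adjusted p = 0.39), above that of 30.9% of rows. Library CGGA held 3 cdc-42 reads where its depth predicted 11.1, and the chi-square over FOG-3 libraries was 2.49 per degree of freedom. This library also kept cdc-42 below the filter. Without it cdc-42 was tested and had a log2 fold change of 1.09 (edgeR adjusted p = 0.066). It was also tested when any 1 control was left out, with log2 fold changes of 0.37 without CCGG to 1.39 without TTGT and adjusted p of 0.17 to 0.61.

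The posterior gene par-1 (WBGene00003916) was called higher, but its change was close to that of the typical tested row. It had 18, 28, 46 and 65 reads in the FOG-3 libraries, or 141, 236, 288 and 233 CPM. In the controls it had 0, 3, 4 and 3 reads, or 0, 264, 203 and 55.9 CPM. The controls spanned almost the whole range, and 2 of them lay above the FOG-3 library GGTT. The chi-square of par-1 over FOG-3 libraries was 2.34 per degree of freedom, a spread that the interval of a pooled fold leaves out. The test gave par-1 a value of 1.05 ± 0.48 on the log2 scale (SE, edgeR adjusted p = 0.041). The median of all tested rows was 0.74, and 54.5% of rows had a smaller value than par-1. With total counts the log2 fold change was 2.25 and the median 1.94, and scaled on the most abundant row they were 2.98 and 2.68. The share of tested rows below par-1 was then 54.6% and 54.7%. In the fit over all 12240 rows the share below par-1 differed more, at 56.5% with TMM factors, 66.2% for total counts and 75.4% for scaling by the most abundant row. The call ended without the FOG-3 library TGGC or GGCA or without the control TTGT or TTAA, with edgeR adjusted p between 0.056 and 0.11. Without TTGT 38.1% of rows lay below par-1. Its log2 fold change was between 1.46 and 1.56 without the FOG-3 library CGGA or without the control AATA or CCGG.

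par-2 (WBGene00003917), whose protein shares the posterior domain with PAR-1, was barely detected. It had 1, 0, 3 and 2 reads in the FOG-3 libraries and 1 read in the control CCGG. Its mean was 8.45 ± 7.76 CPM with FOG-3 and 22.0 ± 44.1 CPM in controls (SD, n = 4), the latter from that lone read. The pooled fold of 0.820 had a 95% interval of 0.0995 to 37.7, so neither a rise nor a fall was detectable at this depth.

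Among the genes of proteins found throughout the cell, par-5 was called higher and par-4 was too rare to test. par-5 (WBGene00003920) had 19, 11, 19 and 29 reads in the FOG-3 libraries, or 149, 92.7, 119.1 and 104 CPM. Its controls had 1, 0, 1 and 2 reads, or 113, 0, 50.7 and 37.3 CPM. The single read of TTAA was the only control value inside the FOG-3 range. The test gave par-5 a value of 1.39 ± 0.60 on the log2 scale (SE, edgeR adjusted p = 0.037), and 58.7% of tested rows had a smaller value. The call ended without the FOG-3 library GGTT and without the control AATA or TTGT or CCGG, with edgeR adjusted p between 0.063 and 0.088. par-5 has a close paralog, ftt-2, and since the counting of reads that map to several places is not given, its count is uncertain in that respect.

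par-4 (WBGene00003919), a kinase related to mammalian LKB1, had 1, 1, 0 and 6 reads in the FOG-3 libraries and 1 read in the control TTGT. Its level was 9.44 ± 8.91 CPM with FOG-3 and 4.66 ± 9.32 CPM without the antibody (SD, n = 4). The pooled fold was 1.09 (95% interval 0.147 to 48.5), and no difference was detectable at this depth.

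**Figure D2:**
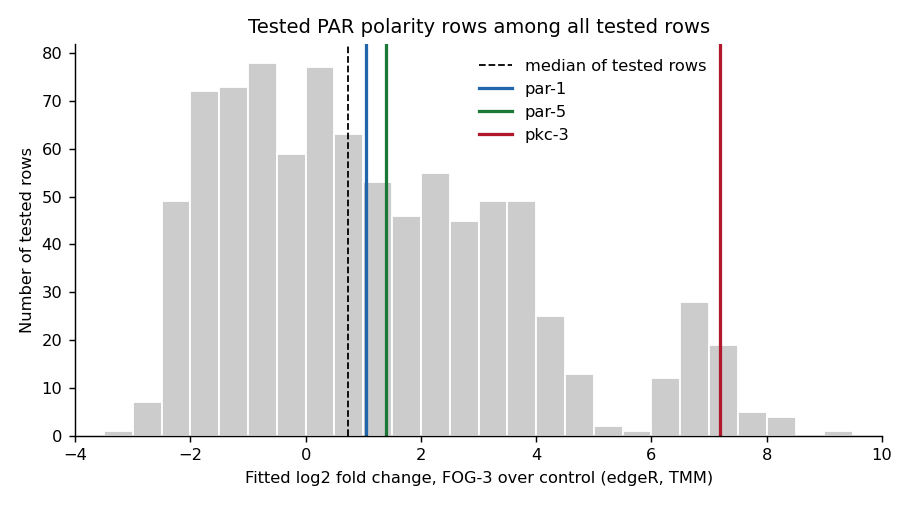
Histogram of the fitted log2 fold changes (FOG-3 over control, edgeR with TMM) of all 886 tested rows, in bins of 0.5, with the median of the tested rows as a dashed line and the 3 tested PAR genes as coloured lines. par-1 at 1.05 and par-5 at 1.39 lie just right of the median of 0.74, and pkc-3 at 7.19 lies in the separate group of high values on the right. The place of pkc-3 depends on a prior count, because its control count is 0, and limma-voom gave 2.76.

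The size of the pooled folds depended on how libraries were scaled. TMM factors were 1.47 to 1.66 in FOG-3 libraries and 0.593 to 0.716 in controls, which lowers all pooled folds relative to total counts by the same factor. Under total counts the pooled fold of par-1 was 4.95 (95% interval 2.62 to 10.5) against 2.15 (1.14 to 4.56) with TMM. For cdc-42 it was 3.21 (1.39 to 9.08) against 1.39, and for par-5 6.15 (2.31 to 23.1) against 2.67 (1.00 to 10.03). The median log2 fold change of all tested rows rose as well, from 0.74 with TMM to 1.94 with total counts. In the fits without a filter, cdc-42 lay above 30.9% of all rows with TMM and 51.8% with total counts. pkc-3 was at least 13.7-fold higher with total counts and at least 23.3-fold higher when scaled on the most abundant row. With CPM of total counts, par-1, par-3 and par-5 joined pkc-3 and par-6 in having every FOG-3 library above every control, a separation found in 19.7% of all gene rows. All gene rows include many with few reads. With TMM the share was 14.3% of all gene rows but 43.5% of tested rows, and for total counts the share of tested rows was not computed. The intervals of par-2 and par-4 held a fold of 1 under all 3 scalings.

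**Figure D3:**
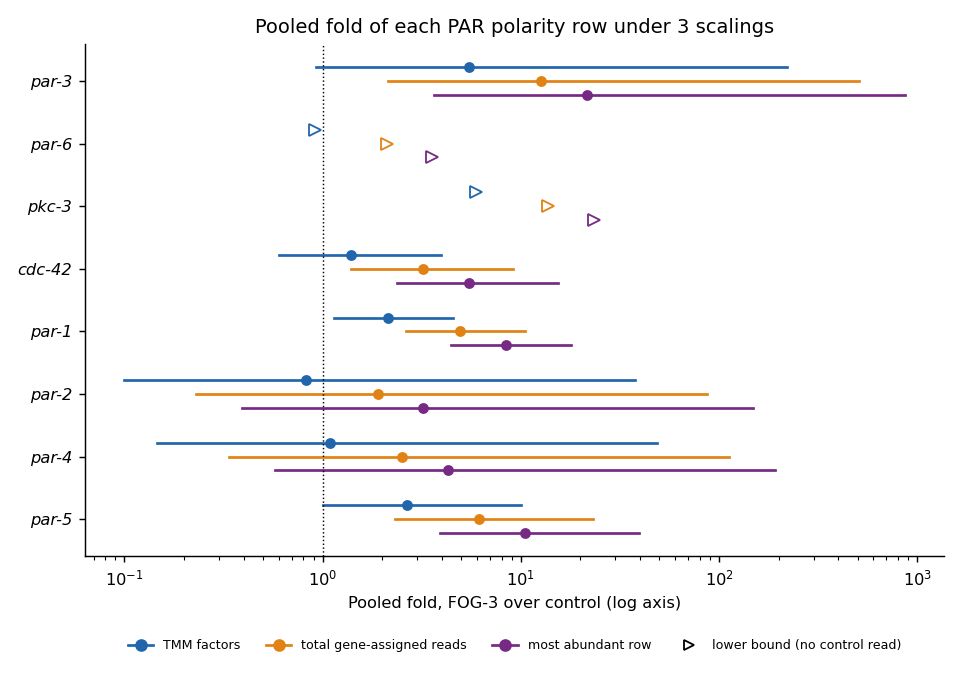
Pooled fold of each PAR gene, FOG-3 over control, on a log axis, with libraries scaled by TMM factors (blue), total gene-assigned reads (orange) or the most abundant row (purple). Points are ratios of pooled levels, lines their 95% intervals from counting error, and open triangles lower bounds for genes with no control read. Each gene shifts right by the same factor from blue to purple, and the intervals of par-2 and par-4 cross 1 in all 3.

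Because one scaling factor acts on all genes of a library, the make-up of the PAR reads does not depend on it. Of the 500 PAR reads in FOG-3 libraries, pkc-3 held 26.0% (95% interval 22.2% to 30.1%), and in single libraries between 22.7% and 27.6%. Of the 23 PAR reads in controls it held 0 (95% interval 0% to 14.8%, and up to 13.0% by the floor of 3 reads). par-1 held 31.4% (27.4% to 35.7%) of these reads in FOG-3 and 43.5% (23.2% to 65.5%) in controls. The share of cdc-42 was 12.2% (9.46% to 15.4%) in FOG-3 and 26.1% (10.2% to 48.4%) in controls. par-5 held 15.6% (12.5% to 19.1%) and 17.4% (4.95% to 38.8%), respectively. For pkc-3 the interval in FOG-3 lay above that in controls, and for the other 7 genes the intervals of both groups overlapped. No test over libraries was made of these shares.

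**Figure D4:**
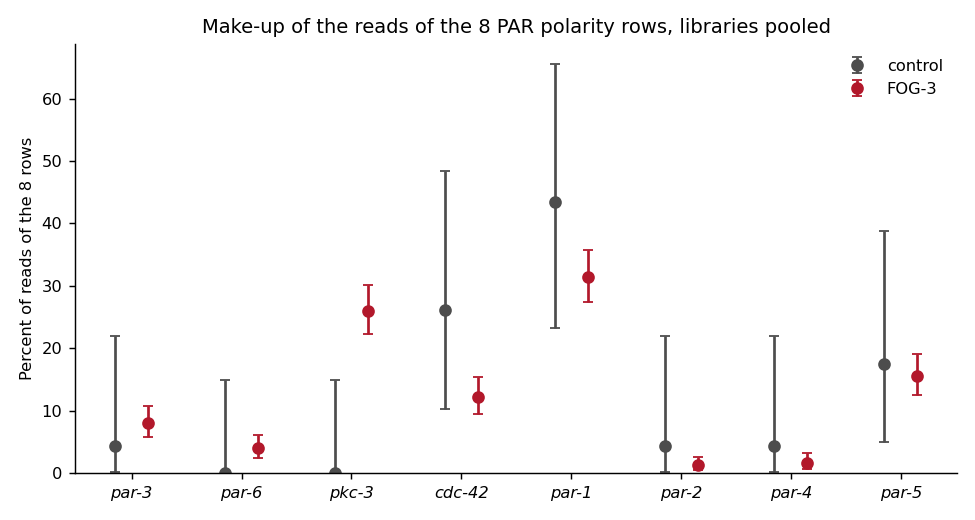
Percent of the reads of the 8 PAR genes that fell on each gene, with the control libraries pooled (grey, 23 reads) and the FOG-3 libraries pooled (red, 500 reads). Error bars are exact 95% intervals from counting error, and they overlap for every gene but pkc-3, which held 26.0% of the reads in FOG-3 and 0 in controls.

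Summed over the 8 genes, PAR genes took 0.111% ± 0.018 of the reads assigned to genes with FOG-3 and 0.0177% ± 0.0051 without the antibody (SD, n = 4). The lowest FOG-3 library, CGGA, had 0.0907% (95% interval 0.0711% to 0.114%) and the highest control, AATA, 0.0229% (0.00919% to 0.0471%). At an equal depth of 14964 reads, 5.31 ± 0.49 of the 8 genes were expected to be detected with FOG-3 and 1.96 ± 0.33 without the antibody (SD, n = 4). These shares and expected numbers do not use TMM factors. Expected detection over all gene rows was not computed, so the gain is not shown to be particular to PAR genes. Of the 12240 gene rows, 6854 had no control read. On total counts the median log2 fold change of the tested rows was 1.94, against 0.74 with TMM. With TMM the pooled fold of the 8 genes was 2.97 (95% interval 1.96 to 4.73), and 2.20 (1.44 to 3.51) without pkc-3. Grouped by the place of their proteins, the 4 anterior genes had 251 FOG-3 and 7 control reads, a pooled fold of 4.90 (95% interval 2.34 to 12.3) with TMM. Without pkc-3 the fold of the anterior genes was 2.36 (1.11 to 6.002). The posterior pair par-1 and par-2 had 163 and 11 reads, a fold of 2.03 (1.10 to 4.14), and par-4 with par-5 had 86 and 5 reads, a fold of 2.35 (0.969 to 7.42). All these intervals overlapped, and a difference between the places was not tested.

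Of the 8 genes par-1 had the most reads over all libraries. The rows most like it over the 8 libraries, among the 885 other tested rows and by Pearson correlation of log2(CPM + 50), were WBGene00021420 (r = 0.97) and WBGene00006833 (r = 0.95). They had 111 and 103 FOG-3 reads and 9 and 5 control reads. These correlations are descriptive, since all points share the same libraries and the same scaling. Of the 4 PAR genes with at least 50 reads, 0 had the same counts in all libraries as another row.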

How the data were processed

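The authors deposited raw counts of reads for each gene ID, in 1 column for each of 4 FOG-3 and 4 control libraries. STAR 2.4.2 and HTSeq are named in the labels, per the submitters' processing notes. The genome build, annotation and strand setting, and how multi-mapped reads and PCR copies were treated, is not given in the sources used here. Column names give the group and a tag found in no label, so libraries have a group but no number, and p-values reflect only how these libraries vary, which may be technical. The 2 rows that name no gene (reads outside genes, 11.5% of all reads in FOG-3 and 3.70% in controls, and ambiguous reads, 0.648% and 0.380%) were left out.

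Counts were fitted over the whole table by edgeR 4.0.16 (R 4.3.3, quasi-likelihood F test on group, TMM, default filter with minimum count 10 and minimum total 15, which left 886 rows). The fit was tested on simulated data. Standard errors are the fold change over the root of F. Pooled folds divide group reads by summed scaled library sizes, with 3 reads for a group at 0. Alternatives were DESeq2 1.42.0, limma-voom 3.58.1, other filters and scalings, a threshold of 0.01, and leaving out libraries. The members and lists were chosen with earlier results of these data known. All 8 members were named by rule, with the 2 rows most like the member of most reads. Other PAR pathway genes and cell type markers, listed by symbol, were not analysed here, because no ID could be paired with a symbol. Levels per length were not computed, so levels of different genes are not compared.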

Additional observations from a re-analysis of the deposited data

Results flagged for a closer look

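Of 14 sets of 4 libraries tested with Dixon's criterion, 4 held a library far from the other 3. The usual rate, by which chance flags about 1 set in 20, does not hold for such low counts. For 3 of them the library is a control with 1 read beside controls with none, a pattern that meets the criterion by construction. They are par-2 in CCGG at 88.1 CPM, par-3 in AATA at 50.7 CPM and par-4 in TTGT at 18.6 CPM. The fourth is cdc-42 in the FOG-3 library CGGA, which lay below the other FOG-3 libraries at 25.3 CPM from 3 reads.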

How the results depend on the processing

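The number of PAR genes called higher, 3 in the reported fit, was 5 with the filter of 1 CPM in 4 libraries, where par-3 and par-6 were also tested and called. It was 1, pkc-3 alone, with limma-voom, at a threshold of 0.01 and without the 2 shallowest controls, an alternative chosen after seeing the data. With 1 library left out at a time it was 3 only without CGGA, 1 without TTGT and 2 without any other library. The lowest count came without TTGT, where 51.8% of the tested rows were called higher. For the other fits with libraries left out, the share of all tested rows called was not computed. Whether the count followed the whole table there was not tested. Calls of lower genes were 0 in all 17 alternatives. All 8 genes were tested only in the fit without a filter and with 1 CPM in 4 libraries. The other fits tested 3 or 4 of them, so these counts of 0 are given as a description. pkc-3 was called higher in all 17, with adjusted p from 3.5e-16 to 8.6e-05 and a log2 fold change of 2.76 to 7.60. par-1 and par-5 each kept their direction in 17 alternatives and lost the call in 7, with log2 fold changes of 0.90 to 2.98 and 0.73 to 3.29. Against the fit without a filter, par-3 passed the threshold in 7 of 15 alternatives, par-6 in 4 and cdc-42 in 2. With limma-voom without a filter, par-2 and par-4 turned to -1.14 and -1.04 on the log2 scale, and the median of all 12240 rows also lay below 0 there, at -1.31. With 1 library left out they ran from -0.39 to 3.19 and from -0.35 to 3.47, below 0 for par-2 without AATA or TTGT or GGCA and for par-4 without TGGC. The cause was not tested, and the number of rows that entered a fit also changed with the filter and with the libraries left out. No paired analysis was possible because the columns carry no replicate numbers. Depth limits the controls, with 23 reads on the 8 genes in all.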
